A study of Mus musculus with 17 samples.

Results

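The 10 genes described here, Ankrd1, Xirp1, Xirp2, Flnc, Sprr1a, Clu, Uchl1, Enah, Nrap and Des, are known from stressed cardiomyocytes at the border of a myocardial infarction (MI). Their Ensembl identifiers matched 10 of the 31647 features of the count table, and all 10 were among the 12301 genes that passed the filter on low counts. The genes were chosen on this known association and with their levels in these libraries in view, that is on the difference between infarct zone and sham. This difference is therefore given for the 10 genes as a description, with no p-value.

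All hearts came from male wild-type C57BL/6J mice aged 8 to 11 weeks at surgery. Left ventricle (LV) was taken from 8 mice 5 days after sham surgery without ligation of a coronary artery. The infarct zone (IZ) was dissected from the LV of 9 mice, picked at random from a larger group, 5 days (5d) after the left anterior descending (LAD) coronary artery had been tied off permanently. Each library was 1 mouse. No library was labelled border zone, so the values refer to whole IZ tissue with whatever bordering muscle the dissection kept.

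Cardiomyocytes that survive next to an infarct are stretched and rebuild their sarcomeres, Z-discs and cell contacts. Ankrd1 encodes a strain-responsive protein at titin, Xirp1 and Xirp2 encode the xin actin-binding repeat proteins, and Flnc encodes the muscle filamin that crosslinks actin at the Z-disc. Nrap acts in myofibril assembly, Des is the muscle intermediate filament protein and Enah extends actin filaments. Sprr1a, Clu and Uchl1 encode a small proline-rich protein induced by injury, a secreted chaperone and a ubiquitin C-terminal hydrolase.

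Libraries of 3' mRNA ends held 1237675 to 4738307 counts after removal of duplicates by molecular identifiers. Levels are given as CPM, counts scaled to a common library size within the tested genes by edgeR's trimmed mean of M-values (TMM), whose factors ran from 0.613 to 1.54. Mitochondrially encoded features took 22.9 to 32.4% of counts in sham, 4.22 to 6.78% in IZ replicates 2 to 9 and 19.5% in IZ replicate 1. The summed CPM of 10 cardiomyocyte markers was 78054 to 92720 in sham, 3349 to 7876 in IZ replicates 2 to 9 and 33750 in IZ replicate 1. All 10 markers fell by the quasi-likelihood test of edgeR (Benjamini-Hochberg adjustment), from Actc1 at -2.12 to Tnni3 at -4.19 on the log2 scale, and none was at 0 in the IZ. In such bulk tissue, fewer cardiomyocytes and less RNA per cardiomyocyte cannot be told apart. Because IZ replicate 1 stood apart, its levels are given separately for the 10 genes and for marker sums. Unless stated otherwise, fold changes and calls are from the fit of all libraries and include it.

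RefSeq promoter windows, the 250 bases before a start site on GRCm38.p6, were found for 8 of the 10 genes, with 9 windows in all because Flnc had 2. They were searched on both strands for the AP-1 motif TGANTCA, the TEAD-binding M-CAT motif CATTCC, the CArG box and the MEF2 site. The windows of Sprr1a, Xirp2 and Nrap are printed because these genes had the highest, the least different and the lowest level in IZ relative to sham. Capitals mark motif matches, and bases that GENCODE places in an exon of the gene were left off.
Sprr1a (chr3:92485896-92486131, minus strand): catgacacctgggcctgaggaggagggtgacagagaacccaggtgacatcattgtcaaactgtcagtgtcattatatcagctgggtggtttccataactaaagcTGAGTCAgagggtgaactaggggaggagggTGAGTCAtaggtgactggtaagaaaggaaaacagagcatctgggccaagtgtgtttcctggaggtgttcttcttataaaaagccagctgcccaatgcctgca
Xirp2 (chr2:67445752-67446001, plus strand): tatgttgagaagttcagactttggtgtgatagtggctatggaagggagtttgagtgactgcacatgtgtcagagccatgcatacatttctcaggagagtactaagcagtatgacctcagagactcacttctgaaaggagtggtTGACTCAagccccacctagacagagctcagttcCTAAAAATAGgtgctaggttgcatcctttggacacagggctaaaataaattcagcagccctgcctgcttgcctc
Nrap (chr19:56390039-56390288, minus strand): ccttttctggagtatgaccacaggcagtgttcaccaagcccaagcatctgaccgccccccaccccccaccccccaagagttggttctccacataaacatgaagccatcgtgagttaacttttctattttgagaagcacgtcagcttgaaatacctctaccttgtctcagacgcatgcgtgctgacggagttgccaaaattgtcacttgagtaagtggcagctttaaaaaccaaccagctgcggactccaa
The Sprr1a window held 2 AP-1 matches, which began 146 and 116 bases before the start. The Xirp2 window held an AP-1 match 107 bases and a MEF2 site 74 bases before the start. An M-CAT match lay 104 bases before the downstream start of Flnc. Others lay 210 and 123 bases before the RefSeq start of Ankrd1, but all 250 bases of that window are in an exon of Ankrd1 in GENCODE, so that by that annotation these matches lie within the gene. The other windows, those of Des, Enah, Uchl1 and Nrap and the upstream start of Flnc, held none of these letters, and no window held a CArG box. Of 32851 RefSeq promoter windows of this length, 6.75% held the AP-1 motif, 12.6% the M-CAT motif, 2.92% the MEF2 site and 1.47% the CArG box. The matches are a description of sequence and no evidence of binding.

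Levels in IZ spread widely around sham. In the fit of all libraries 7 of the 10 genes had an adjusted p under 0.05, against 69.5% of all tested genes. Of these, 3 were higher in IZ (Sprr1a, Clu and Uchl1; 36.3% of tested genes were called higher) and 4 were lower (Xirp1, Flnc, Enah and Nrap; 33.1% were called lower). Since the genes were picked with this contrast in view, nothing is read from these counts. The median log2 fold change was -0.46 over the 10 genes and 0.05 over all tested genes.

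Ankrd1 (ENSMUSG00000024803), the strain-responsive ankyrin repeat gene on chromosome 19, had 1253 CPM in the lowest, 1547 in the median and 1918 in the highest sham library. IZ replicates 2 to 9 ran from 487 through a median of 683 to 1271 CPM, and IZ replicate 1 had 2788 CPM. Thus 7 of these 8 libraries lay below every sham library, whereas replicate 1 lay above all of them. On the log2 scale IZ differed from sham by -0.62 ± 0.29 (standard error, SE) over all libraries and by -1.01 ± 0.18 without replicate 1.

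Xirp1 (ENSMUSG00000079243, chromosome 9) encodes xin, an actin-binding protein of the intercalated disc. It had 68.1, 106 and 152 CPM in the lowest, median and highest sham library. In IZ replicates 2 to 9 it had 13.6, 18.7 and 27.8 CPM, and replicate 1 had 91.7 CPM. The 8 libraries all lay below sham, and replicate 1 lay inside the sham range. Its log2 fold change was -1.99 ± 0.30 (SE), or -2.51 ± 0.16 without replicate 1. The Xirp1 gene model lies within that of Cx3cr1, a chemokine receptor gene on the same strand, and how reads in the shared part were counted is not given in the sources used here. The mean of Cx3cr1 itself was 6.13 ± 2.06 CPM over the 8 sham and 37.5 ± 8.04 CPM over the 9 IZ libraries (SD), the opposite direction.

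Xirp2 (ENSMUSG00000027022, chromosome 2), whose product is the larger relative of xin at Z-disc and intercalated disc, behaved otherwise. Sham libraries ran from 243 through a median of 302 to 370 CPM. IZ replicates 2 to 9 ran from 156 through 238 to 309 CPM, so that 5 of 8 lay below every sham library, and replicate 1 had 581 CPM, above every sham library. The log2 fold change of -0.15 ± 0.20 (SE) was smaller than its error, and it was -0.41 ± 0.13 without replicate 1.

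Flnc (ENSMUSG00000068699, chromosome 6) showed the same division with a small spread. Sham libraries had 145, 169 and 214 CPM, and IZ replicates 2 to 9 had 60.6, 67.5 and 87.8 CPM as lowest, median and highest. Replicate 1, at 176 CPM, again lay among the sham values while the other 8 lay below all of them. The coefficient of variation was 13.4% in sham and 13.3% in IZ replicates 2 to 9. Its log2 fold change was -1.08 ± 0.18 (SE), or -1.34 ± 0.10 without replicate 1.

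Nrap (ENSMUSG00000049134, chromosome 19), the nebulin-related anchoring protein gene of growing myofibrils, was the only gene of the 10 with all 9 IZ libraries below all sham libraries. Sham libraries had 261, 333 and 439 CPM. IZ replicates 2 to 9 had 30.4, 51.9 and 75.3 CPM, and replicate 1 had 259 CPM, just under the lowest sham library. The mean was 6.57 times higher in sham than in IZ replicates 2 to 9, and the log2 fold change was -2.19 ± 0.32 (SE) over all libraries and -2.77 ± 0.15 without replicate 1. Among all tested genes, 16.5% had every IZ library below every sham library.

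Des (ENSMUSG00000026208, chromosome 1), the desmin gene, overlapped between groups. Sham libraries ran from 1370 through 2124 to 3476 CPM, and IZ replicates 2 to 9 from 1042 through 1587 to 2408 CPM. Replicate 1 had 2370 CPM, close to the highest of the other IZ libraries, and only 1 IZ library lay below every sham library. Over all libraries the log2 fold change was -0.31 ± 0.20 (SE). Desmin is also made by smooth muscle, whose 5 markers summed to 224 to 519 CPM in sham, 964 to 1556 in IZ replicates 2 to 9 and 619 in replicate 1, with 3 of 5 higher (Tagln most, 2.79), 2 lower (Smtn most, -1.41) and none at 0. The part of these cells in the Des values was not tested.

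Enah (ENSMUSG00000022995, chromosome 1), the Mena gene of the Ena/VASP actin elongation factors, had 80.0, 86.1 and 110 CPM in sham. The 8 IZ replicates other than 1 had 35.6, 50.1 and 68.4 CPM, all below sham, and replicate 1 had 113 CPM, above every sham library. With TMM the log2 fold change was -0.64 ± 0.17 (SE), but 0.42 ± 0.14 with total counts alone, and -0.84 ± 0.12 with TMM and no replicate 1. Enah is uncertain because the 3' end of a transcript was 96.5% identical to Zfp352 over 282 bases, so that 3' reads could be split between them.

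Sprr1a (ENSMUSG00000050359, chromosome 3) had the largest fold change of the 10 genes. In sham it had 0 counts in replicate 5 and at most 24 counts elsewhere, or 0, 9.95 and 13.3 CPM as lowest, median and highest. It passed the filter on low counts through the IZ libraries. The IZ libraries 2 to 9 had 358, 469 and 765 CPM, and replicate 1 was the lowest IZ library at 280 CPM. All 9 IZ libraries thus lay far above sham, with a mean 56.3 times higher in replicates 2 to 9 than in sham. The log2 fold change was 5.77 ± 0.35 (SE), and it was 5.82 ± 0.27 without replicate 1. Sprr1a is also a gene of stratified epithelium, of which 5 of 6 listed markers had features. Their summed level did not exceed 10 CPM in any sham library and was 2.37 to 8.91 in IZ replicates 2 to 9 and 3.26 in replicate 1. Krt10, the only tested marker of that list, was lower (-1.15, or -0.07 and not called with total counts alone). The other 4 were at 0 to 1 count in every sham library. In IZ, Cdh1 had 1 to 7 counts in all 9 libraries, Krt14 had 0 to 27 counts, Epcam 0 to 4 and Krt1 0 to 1. The part of such cells in the Sprr1a values was not tested.

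Clu (ENSMUSG00000022037, chromosome 14), the clusterin gene, had 263, 362 and 479 CPM in sham. In IZ, replicates 2 to 9 had 770, 1095 and 1560 CPM, and replicate 1 had 2789 CPM. Every IZ library lay above every sham library, and replicate 1 lay above all other IZ libraries. Its log2 fold change was 1.87 ± 0.23 (SE), or 1.61 ± 0.15 without replicate 1. Clusterin is a secreted protein of many cell types, and the fibroblast and macrophage markers were higher in IZ than in sham. The 6 fibroblast markers summed to 1258 to 2405 CPM in sham, 10832 to 14999 in IZ replicates 2 to 9 and 9999 in replicate 1, with 5 of 6 higher, Col1a1 most (4.0), and Dcn not called (0.04). The 5 macrophage markers with features summed to 332 to 486 CPM in sham, 3273 to 4994 in IZ replicates 2 to 9 and 1825 in replicate 1, all higher, from Csf1r (2.31) to Cd68 (4.09). No marker of either list was at 0 in every library, and the part of these cells in the Clu values was not tested.

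Uchl1 (ENSMUSG00000029223, chromosome 5), known from neurons, had 7.22, 8.62 and 13.9 CPM in sham. In IZ, replicates 2 to 9 had 27.9, 36.2 and 53.0 CPM, and replicate 1 had 46.0 CPM, the second highest of IZ. All IZ libraries were above all sham libraries, with counts of 11 to 25 in sham and 57 to 259 in IZ. The log2 fold change was 2.04 ± 0.16 (SE), or 1.96 ± 0.16 without replicate 1. The 11 markers of nerve and Schwann cells summed to 14.0 to 42.0 CPM in sham, 20.7 to 42.3 in IZ replicates 2 to 9 and 22.1 in replicate 1. Only 3 of them were tested, among them Tubb3, which was higher (3.44), and Stmn2, which was not called, and Snap25 was at 0 in every library. Tubb3 had 1 to 5 counts in sham and was tested through its IZ counts, so that nothing is read from its call.

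Sprr1a, Clu and Uchl1 were the 3 genes with every IZ library above every sham library, which held for 16.6% of tested genes. With replicate 1 set aside the same 3 genes lay wholly above sham and 4 (Xirp1, Flnc, Enah and Nrap) lay wholly below. These 7 of 10 genes stand beside 40.5% of tested genes that lay wholly on either side. Replicate 1 was the highest IZ library for 7 of the 10 genes and the lowest for Sprr1a. It also had the highest cardiomyocyte marker level of IZ, and the part of that level in the values of replicate 1 was not tested.

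**Figure D1:**
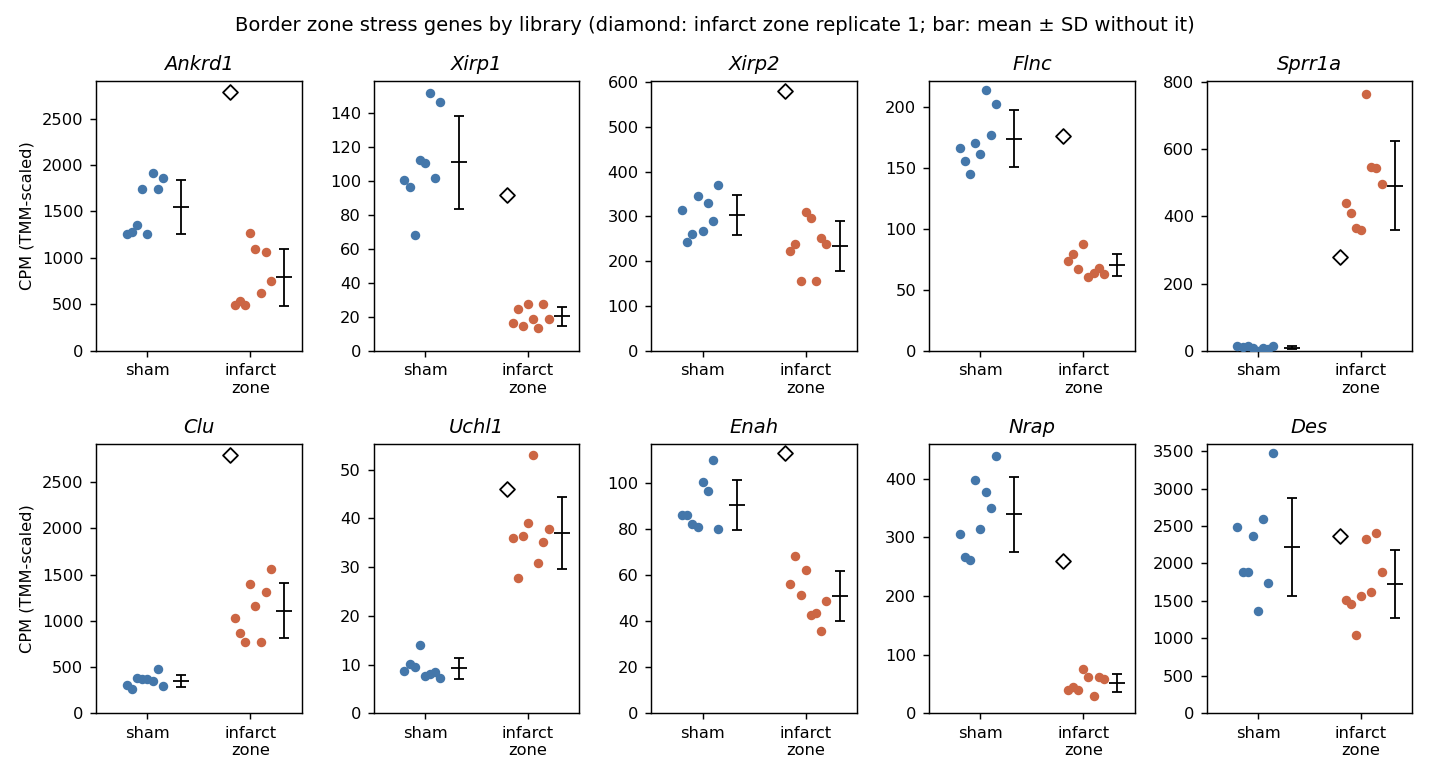
Level of each of the 10 genes in CPM (y axes start at 0) in 8 sham and 9 IZ libraries, with the diamond for IZ replicate 1 and bars for mean ± SD of sham and of IZ replicates 2 to 9. Sprr1a, Clu and Uchl1 lie wholly above sham in IZ, whereas replicate 1 lies within or above the sham range for Ankrd1, Xirp1, Xirp2, Flnc, Enah and Des.

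The direction of 4 genes depended on the scaling of libraries. With total counts alone in place of TMM, log2 fold changes were 0.37 ± 0.24 for Ankrd1, 0.87 ± 0.17 for Xirp2, 0.42 ± 0.14 for Enah and 0.74 ± 0.20 for Des (SE), whereas all 4 were below 0 with TMM. Flnc was at -0.05 ± 0.14, Xirp1 at -1.01 ± 0.24 and Nrap at -1.23 ± 0.25. That scaling moved the median of all tested genes by 1.09 to 1.14, so these 7 genes lay below the median gene under both scalings. Sprr1a (6.86), Uchl1 (3.11) and Clu (2.90) lay above it. DESeq2 size factors and upper quartile factors gave the same sign as TMM for each of the 10 genes.

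**Figure D2:**
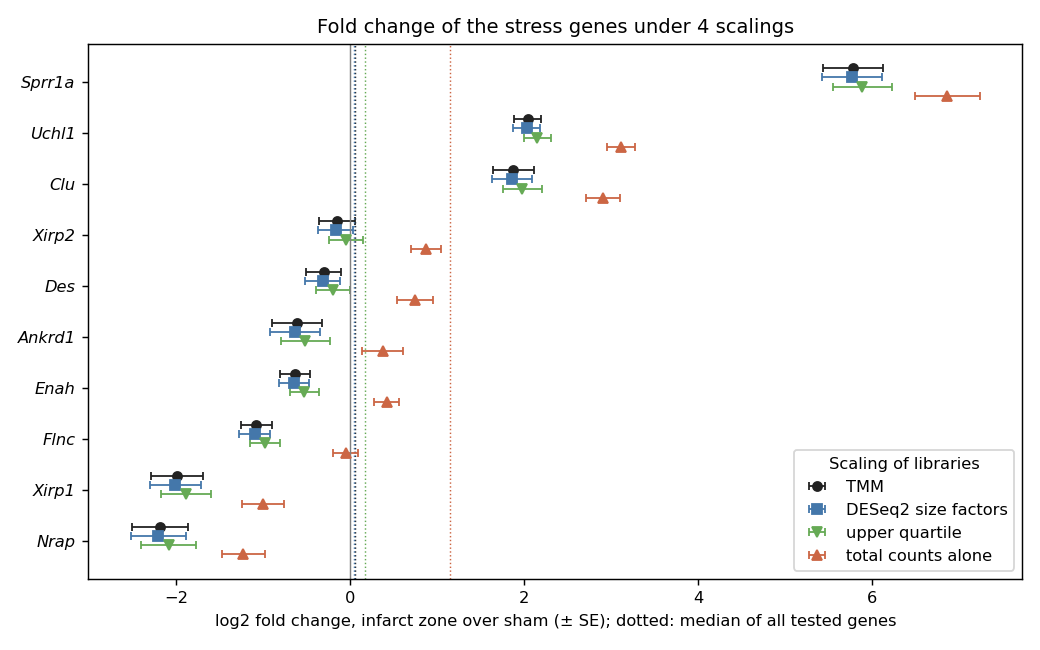
Log2 fold change of IZ over sham (x axis, ± SE) for each of the 10 genes under 4 scalings of the libraries, with dotted lines at the median of all tested genes under each. TMM, DESeq2 size factors and upper quartile factors nearly coincide, and total counts alone shift every gene to the right, Enah from -0.64 to 0.42.

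Because the cardiomyocyte markers fell, the 10 genes were also counted per 1000 counts of the 10 markers, a ratio that needs no scaling between libraries. By this ratio all 10 genes were higher in each of the 9 IZ libraries than in every sham library. This held for 83.8% of all tested genes, since the denominator fell 16.0-fold between sham and IZ replicates 2 to 9, so the count does not set the 10 genes apart. The sizes differed between genes. Over all tested genes the median ratio was 18.1-fold higher in IZ replicates 2 to 9, and 7 of the 10 genes lay below this and 3 above.

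Nrap and Xirp1 differed least against the markers. Nrap had 3.30 to 4.86 counts per 1000 marker counts in sham, 7.78 to 12.1 in IZ replicates 2 to 9 and 7.68 in replicate 1, which was 2.48-fold higher in IZ replicates 2 to 9. Xirp1 had 0.872 to 1.65 in sham, 2.59 to 5.09 in IZ replicates 2 to 9 and 2.72 in replicate 1, or 3.01-fold higher. These values lay within the range of the markers themselves, each set against the other 9, from 0.459-fold for Myl2 to 3.37-fold for Actc1. The other 8 genes lay above that range.

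Flnc was 7.02-fold, Ankrd1 8.18-fold and Enah 9.88-fold higher per marker count in IZ replicates 2 to 9. Xirp2 reached 12.8-fold and Des 13.0-fold, still below the median gene. Clu, at 51.1-fold, was above 87.9% of tested genes, Uchl1, at 69.0-fold, above 91.3% and Sprr1a, at 972-fold, above 99.9%. In replicate 1 the ratios were closer to sham, from 1.97-fold for Nrap through 4.63-fold for Ankrd1 and 20.2-fold for Clu to 82.1-fold for Sprr1a. In 9 of the 10 genes all 8 other IZ libraries had a higher ratio than replicate 1, and for Xirp1 7 of 8 did.

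**Figure D3:**
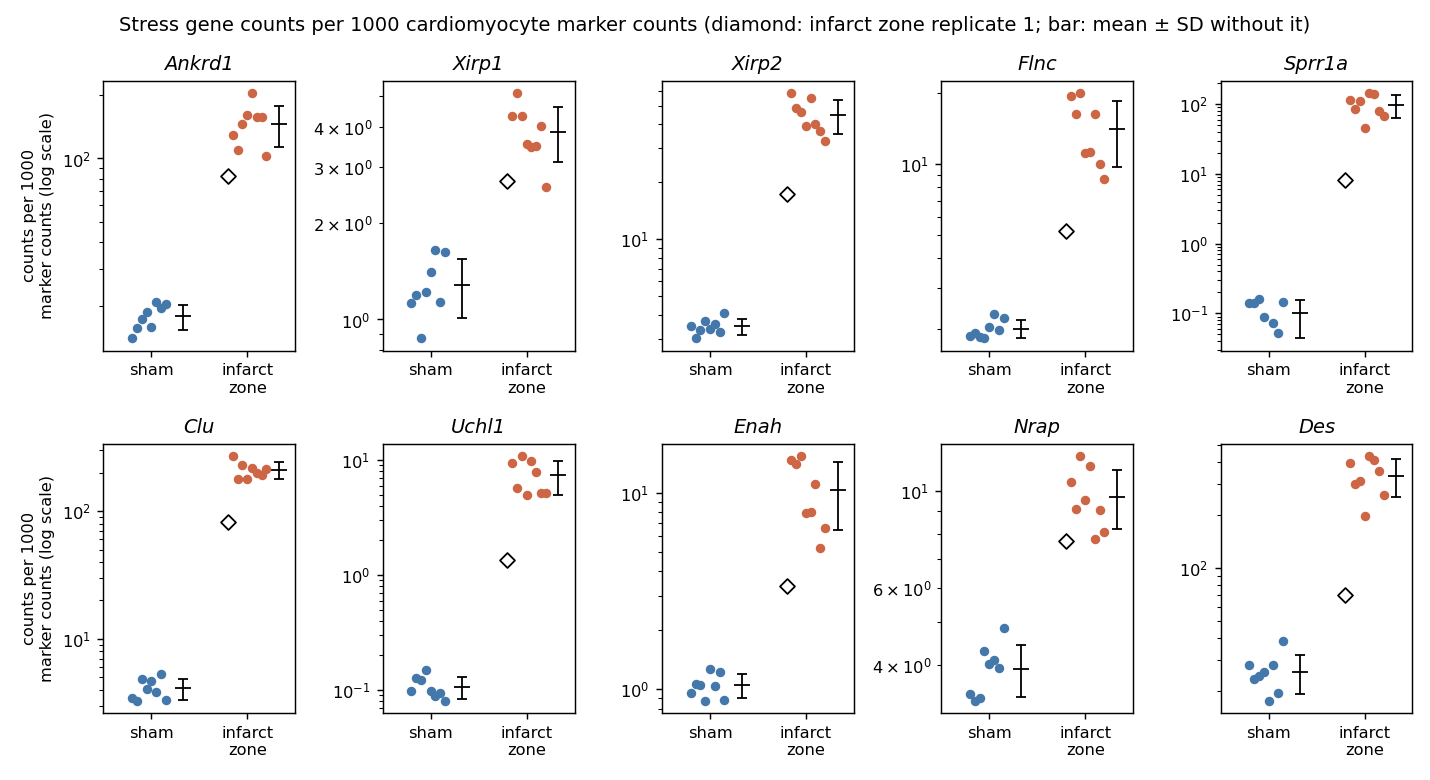
Counts of each of the 10 genes per 1000 counts of 10 cardiomyocyte markers (log y axes) by library, with the diamond for IZ replicate 1 and bars for mean ± SD of sham and of IZ replicates 2 to 9. All IZ libraries lie above all sham libraries in every panel, as for 83.8% of tested genes, and the Sprr1a value of 0 in sham replicate 5 cannot be drawn on a log axis.

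Within a group, the level of cardiomyocyte marker RNA varied between mice. In IZ replicates 2 to 9 (n = 8), Clu and Nrap had the highest Pearson's r with the log2 marker level. For Clu, Pearson's r was 0.90 (exact two-sided permutation p = 0.00516) and Spearman's rho 0.90 (exact p = 0.00456). For Nrap, r was 0.88 (exact permutation p = 0.0064) and rho 0.83 (exact p = 0.0154). Without replicates 4 and 5, the libraries farthest from the median marker level, r was 0.86 for both genes.

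Ankrd1 had r = 0.82 (exact permutation p = 0.0223, rho = 0.88 with exact p = 0.00724), Xirp2 r = 0.78 (exact permutation p = 0.0234, rho = 0.83 with exact p = 0.0154) and Xirp1 r = 0.78 (exact permutation p = 0.0303, rho = 0.81 with exact p = 0.0218). Without those 2 libraries r fell to 0.67, 0.56 and 0.62. The relations were 0.61 for Des, 0.26 for Uchl1, 0.24 for Flnc, 0.10 for Sprr1a and -0.08 for Enah, each with an exact permutation p above 0.05. Without the same 2 libraries r was 0.68 for Des, 0.27 for Uchl1, -0.31 for Flnc, 0.20 for Sprr1a and -0.38 for Enah. The sign for Flnc thus hung on these libraries. Adjusted over all 12301 tested genes by Benjamini-Hochberg, none of the 10 relations passed, with a lowest adjusted permutation p of 0.496. Unadjusted, 5 of the 10 genes had an exact permutation p under 0.05, against 7.28% of all tested genes. The median r was 0.70 over the 10 genes and 0.03 over all tested genes.

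In the 8 sham libraries, r was 0.87 for Xirp2 (exact permutation p = 0.0091, rho = 0.83 with exact p = 0.0154), 0.81 for Nrap (exact permutation p = 0.0254, rho = 0.86 with exact p = 0.0107) and 0.77 for Flnc (exact permutation p = 0.0286, rho = 0.83 with exact p = 0.0154). Ankrd1 was at 0.76, Des at 0.70 and Xirp1 at 0.67, each with an exact permutation p above 0.05, although the rho of Xirp1 was 0.79 with an exact p of 0.0279. Clu, at 0.11, Uchl1, at 0.11, Sprr1a, at 0.37, and Enah, at -0.02, were weakly related to the markers in sham. Without sham replicates 3 and 5, r was 0.88 for Xirp2, 0.82 for Nrap and 0.63 for Flnc. In the same libraries it was 0.56 for Clu, -0.33 for Sprr1a, -0.03 for Uchl1 and 0.04 for Enah, so the values of Clu and Sprr1a in sham hung on few libraries. No relation passed after adjustment over all tested genes (lowest adjusted permutation p = 0.521), and 3 of the 10 genes had an unadjusted exact permutation p under 0.05, against 8.97% of all tested genes. Whether the relation of Clu or Flnc differed between IZ and sham was not tested.

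**Figure D4:**
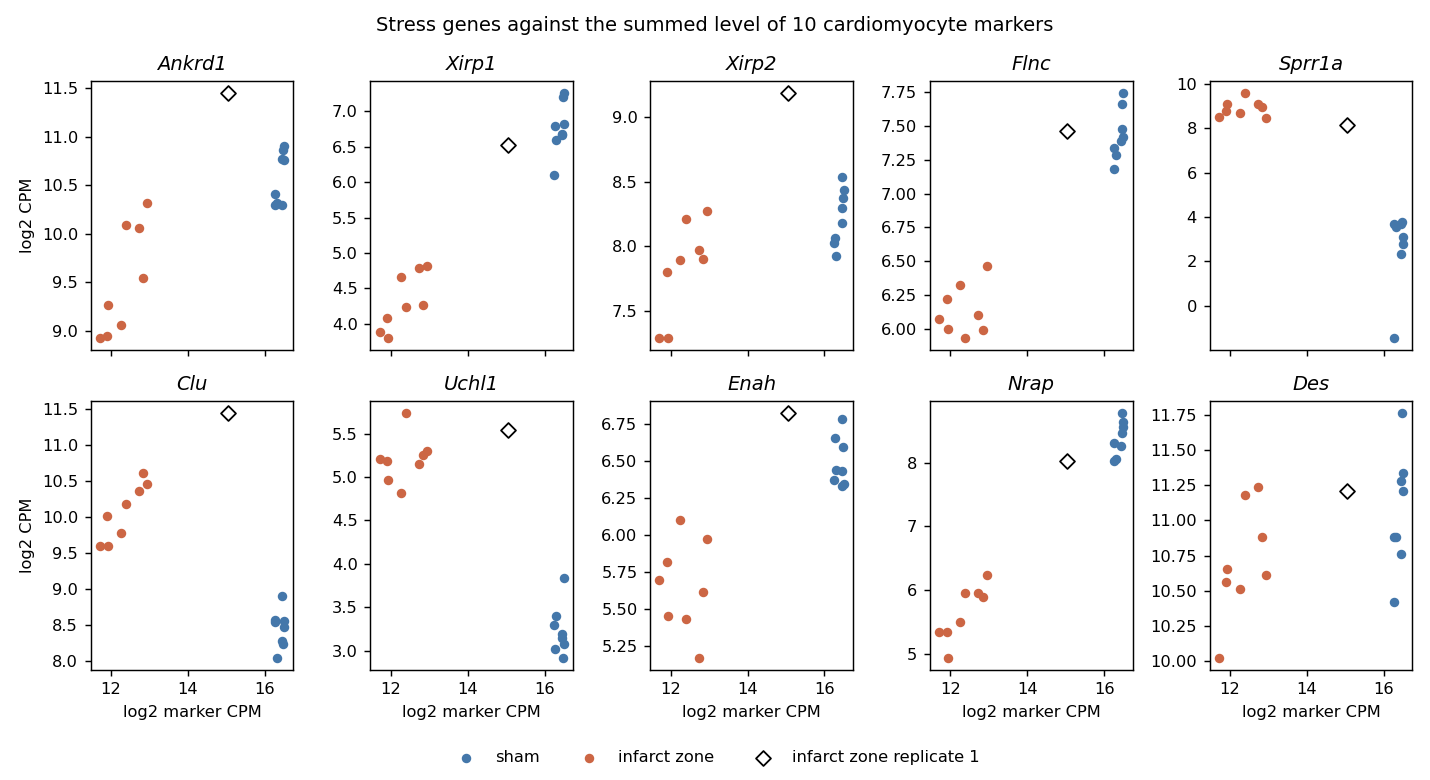
Log2 CPM of each of the 10 genes (y axis) against the log2 summed CPM of 10 cardiomyocyte markers (x axis) in sham libraries, IZ replicates 2 to 9 and, as a diamond, IZ replicate 1. Clu and Nrap rise with the marker level within IZ (r = 0.90 and 0.88), and Sprr1a and Enah do not (r = 0.10 and -0.08).

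For each of the 10 genes, the gene with the most similar log2 CPM over all 17 libraries was sought among 6376 genes whose mean was 20 CPM or more. These correlations take in the difference between sham and IZ together with the spread within each group. Nrap was closest to Srl (r = 0.99), the sarcalumenin gene of the sarcoplasmic reticulum, and Xirp1 to Cryab (r = 0.99), a small heat shock protein gene. Flnc was closest to Xirp1 (r = 0.98) and Xirp2 to Ankrd1 (r = 0.86), which are both among the 10 genes. For Xirp2 with Ankrd1, r was 0.76 within IZ replicates 2 to 9 and 0.74 within sham. Clu was closest to Gpx3 (r = 0.98), a secreted glutathione peroxidase gene, and Uchl1 to Cd72 (r = 0.98), a B cell and macrophage receptor gene. Ankrd1 was closest to Clic5 (r = 0.89), Enah to Gm3272 (r = 0.95) and Des to Mpst (r = 0.81). Within IZ replicates 2 to 9 these r values were 0.87, 0.80 and 0.82. Within sham they were -0.26, 0.55 and 0.83. Sprr1a was closest to Gm29257 (r = 0.98), with r = 0.98 within sham and -0.02 within IZ replicates 2 to 9. The log2 fold change of Gm29257 was 0.78. Sprr1a had 0 counts in sham replicate 5, and the part of that library in the r within sham was not tested.

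Further genes of the same pathways were counted in 10 lists of 119 genes, of which 112 had a feature and 92 were tested. By the quasi-likelihood test of edgeR (Benjamini-Hochberg adjustment over all tested genes), 32 rose, 46 fell and 14 were not called, with a median log2 fold change of -0.36. The 32 include genes whose sham counts alone would not have passed the filter on low counts. Among these are Sprr2a1, Sprr2a2, Sprr2a3, Krt18, Runx1, Gdf15, Atf3, Thbs4, Cd55, Apbb1ip and Mrtfa, which were tested through their IZ counts. With total counts alone 55 were higher and 26 lower, so that direction is given below as called with TMM.

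Ankrd1 acts among the strain sensors at titin, most of which fell. Of 7 tested genes, 6 were lower and none was higher, with a median log2 fold change of -2.82. The lower genes were Tcap (-4.33 ± 0.44, SE), which encodes the titin cap, Fhl2 (-3.05 ± 0.33), Ttn (-3.01 ± 0.37), Myoz2 (-2.82 ± 0.35), Mypn (-2.76 ± 0.36) and Csrp3 (-2.49 ± 0.29), the muscle LIM protein gene. Fhl1 was not called, at -0.11 ± 0.18, but was higher with total counts alone (0.94). Against the cardiomyocyte markers, the median of this list was 1.53-fold in IZ replicates 2 to 9, beside 8.18-fold for Ankrd1.

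Of 13 tested partners of xin and nebulin proteins, 9 were lower, 3 higher and 1 not called, with a median of -1.28. Ldb3 (-3.01 ± 0.37), the Z-disc gene also called Cypher, and Nebl (-2.95 ± 0.26), a cardiac nebulin relative, fell most. Lasp1 (1.60 ± 0.12), a short nebulin relative of many cell types, and Tln1 (1.01 ± 0.10), the talin of focal adhesions, rose most. Nebl and Lasp1 thus moved in opposite directions, and Nrap, of the same family, lay nearer to Nebl.

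Of 11 tested genes of filamins and chaperone-assisted autophagy, 7 were lower, 2 higher and 2 not called, with a median of -0.69, or 0.41 with total counts alone. The non-muscle filamin gene Flna rose (2.36 ± 0.16), in contrast to the lower Flnc. Hspb7 (-2.05 ± 0.21) and Bag3 (-1.83 ± 0.18), a chaperone and a co-chaperone that handle damaged filamin, fell. Flna had 86.0 CPM in sham, 468 in IZ replicates 2 to 9 and 224 in replicate 1.

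Around desmin, 4 of 7 tested intermediate filament and linker genes were higher and 2 lower, with a median of 0.69. Vim (2.50 ± 0.16), the mesenchymal filament gene, Lmna (1.13 ± 0.13) and Nes (0.69 ± 0.15) rose, and Krt18 (2.94 ± 0.46) was also called higher. Krt18 had 0 to 4 counts in sham and passed the filter on low counts through the IZ libraries, so that nothing is read from its call. The desmosomal linker gene Dsp (-2.41 ± 0.29) and Synm (-1.05 ± 0.30), a partner of desmin, fell, although Synm was at 0.01 with total counts alone. Plec was not called, at -0.02 ± 0.12.

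Of 11 tested genes of Ena/VASP and actin assembly, 7 were higher and 4 lower, with a median of 1.20. Apbb1ip (2.42 ± 0.18), a talin recruiter of blood cells, and Zyx (1.52 ± 0.12), whose product zyxin binds Ena/VASP proteins, had the highest fold changes. Apbb1ip had 10 to 17 counts in sham and passed the filter on low counts through the IZ libraries. Nothing is therefore read from its call. The sarcomeric actin regulators Fhod3 (-3.41 ± 0.33) and Lmod2 (-2.36 ± 0.34) fell most.

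In the small proline-rich and cornified envelope list, 4 of 18 genes were tested. Sprr2a1 (5.68 ± 0.51), Sprr2a2 (5.86 ± 0.52) and Sprr2a3, at least 17.6-fold higher in IZ, are near-identical copies whose separate values are uncertain. They had 0 to 4 counts in the sham libraries and passed the filter on low counts through the IZ libraries, so that nothing is read from their calls. Tgm2, tissue transglutaminase, rose by 0.56 ± 0.11.

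Of 7 tested genes of ubiquitin and its C-terminal hydrolases, 4 were lower, 1 higher and 2 not called, with a median of -0.41, or 0.68 with total counts alone. Of the relatives of Uchl1, Uchl3 (-1.0 ± 0.21) and Uchl4 (-1.35 ± 0.25) were lower, but neither was called with total counts alone (0.08 and -0.28). Uchl5 was not called (-0.18 ± 0.14), and was higher with total counts alone (0.91). Ubb was not called (0.09 ± 0.10) and Rps27a rose (1.03 ± 0.11). Bap1 fell (-0.41 ± 0.17), a call that was lost in 11 of the 17 fits without 1 library, at -0.40 to -0.35, namely without sham replicate 1, 4, 7 or 8 or IZ replicate 2, 3, 4, 5, 6, 8 or 9, and was reversed with total counts alone (0.68).

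Of 6 tested clusterin receptors and complement guards, 3 were higher and 3 lower, with a median of -0.25, or 0.80 with total counts alone. Apoe (2.96 ± 0.16) and Lrp1 (1.85 ± 0.16), a scavenger receptor gene, rose, and Cd55 (0.91 ± 0.25) was also called higher. Cd55 had 5 to 33 counts in sham and passed the filter on low counts through the IZ libraries. Nothing is therefore read from its call. Vldlr (-3.14 ± 0.39), a clusterin receptor gene, Cd59a (-1.91 ± 0.17) and Vtn (-1.41 ± 0.34), the vitronectin gene, fell.

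Other genes known from stressed cardiomyocytes moved in both directions, with 6 of 10 tested genes higher, 2 lower and 2 not called and a median of 1.38. Runx1 (3.73 ± 0.24), a transcription factor gene, and Nppa (3.21 ± 0.29), which encodes atrial natriuretic peptide, had the highest fold changes. Runx1 had 2 to 13 counts in sham, Gdf15 0 to 9, Atf3 4 to 13 and Thbs4 6 to 24. All of these except Nppa passed the filter on low counts through the IZ libraries, so that nothing is read from their calls or from the median of this list. The fetal sarcomere genes Myh7 (-3.28 ± 0.51) and Acta1 (-1.80 ± 0.44) fell. Nppa had 327 CPM in sham, 2634 in IZ replicates 2 to 9 and 6094 in replicate 1.

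Of 16 tested transcription regulators that act upstream of such genes, 2 were higher, 9 lower and 5 not called, with a median of -0.64, or 0.44 with total counts alone. Mrtfa (1.46 ± 0.22), an actin-sensing cofactor of Srf, and Stat3 (0.43 ± 0.19) were called higher. Mrtfa had 8 to 24 counts in sham and passed the filter on low counts through the IZ libraries. Nothing is therefore read from its call. The call of Stat3 was lost in 9 of the 17 fits without 1 library, at 0.30 to 0.44. These were the fits without sham replicate 1, 2, 3, 4, 6 or 8 or IZ replicate 1, 2 or 4. Myocd (-2.68 ± 0.41), the myocardin gene, and Gata4 (-1.41 ± 0.21) fell most.

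**Figure D5:**
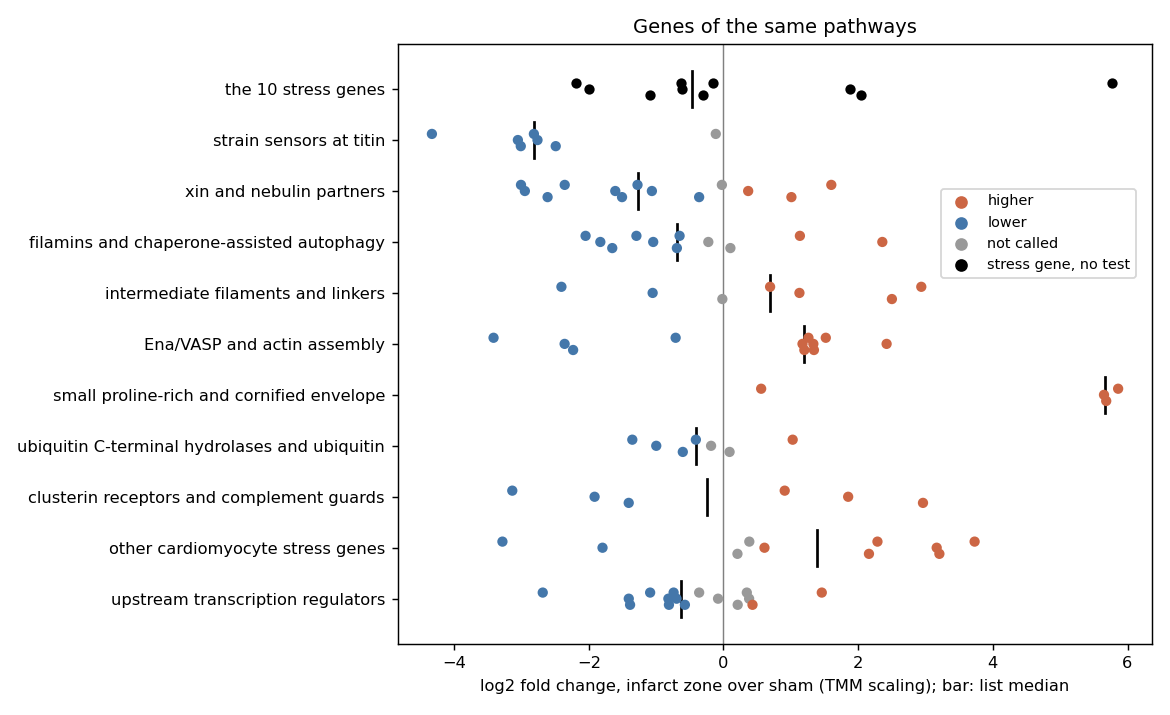
Log2 fold change of IZ over sham (x axis, TMM) for the 10 genes in black and for the 92 tested genes of the 10 pathway lists, coloured by call, with a bar at the median of each list. Strain sensors at titin have the lowest median (-2.82), and 3 near-identical Sprr2a copies, with 0 to 4 counts in sham, lie farthest to the right among the pathway genes.

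Markers of further cell types were also measured. The skeletal muscle markers, of which 2 of 10 were tested and Myh4 was at 0 throughout, summed to 3.96 to 37.9 CPM in sham, 9.63 to 23.2 in IZ replicates 2 to 9 and 12.3 in replicate 1. Tnnt3 had no more than 3 counts in any sham library and was at least 2.68-fold higher in IZ, and Tnni2 was not called (1.02), except without sham replicate 4 or IZ replicate 1, 5 or 7 (1.07 to 1.62). Both tested atrial markers, Myl4 (-3.35) and Myl7 (-4.97), were lower. Of 5 endothelial markers, none was higher, 2 were lower, with Kdr at -1.70, and 3 were not called, with Pecam1 at -0.16, whereas 4 of 5 were higher with total counts alone. Of 6 mesothelial markers Msln was higher (2.22) and Wt1 was not called (0.03), with sums of 7.81 to 20.4 CPM in sham, 14.2 to 134 in IZ replicates 2 to 9 and 10.5 in replicate 1. Msln had 0 to 9 counts in sham and was tested through its IZ counts, so that nothing is read from its call. The part of these cells in the levels of the 10 genes was not tested.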

How the data were processed

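LV tissue of 8 mice 5d after sham surgery and IZ tissue of 9 mice 5d post-MI was analysed by 3' mRNA sequencing (MACE). The deposited table holds raw counts per gene. Per the labels and the study's methods, the authors trimmed reads, removed duplicates by molecular identifiers, mapped to mm10 (Bowtie2 is named in the submitters' processing notes) and counted with HTSeq. Annotation and strand setting are not given in the sources used here. Counts of 3' ends were not divided by gene length, so levels were not compared between genes. Of 31647 features, 31521 matched GENCODE vM21 and 35 were merged genes. Positions and gene models are those of that annotation.

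From the counts, edgeR 4.0.16 (R 4.3.3) kept 12301 genes by filterByExpr (minimum count 10), scaled by TMM and ran the quasi-likelihood test with Benjamini-Hochberg adjustment (threshold 0.05), after tests on simulated data. Log2 CPM used a prior count of 1. Relations with the marker level used exact permutation of all 40320 pairings in each group for every tested gene, adjusted over all tested genes in place of the planned adjustment over the 10 genes. Library totals limit precision for low counts such as those of Sprr1a and Uchl1 in sham, and 3 counts were taken as the floor for bounds. Alternatives were other scalings, filters, DESeq2 1.42.0, a replicate block and leaving out each library. Same-numbered libraries were not treated as pairs. The last 500 bases of transcripts were compared by BLAST 2.17.0 (at least 95% identity over 100 bases). Promoter sequences are from RefSeq.

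All 10 genes are named. Of each pathway list the 2 highest and 2 lowest tested genes are named, or all genes where 8 or fewer were tested. Of each marker list the highest and lowest are named. For each of the 10 genes the most similar gene is named. A few list genes that this rule would name are not reported here. Cx3cr1, Zfp352, Snap25, Myh4, Krt1, Krt14, Epcam, Cdh1, Stmn2, Gdf15, Atf3 and Thbs4 were named after their values were seen. The 10 genes and all lists were chosen with earlier results of these data known.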

Additional observations from a re-analysis of the deposited data

Results flagged for a closer look

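In groups of this size an extreme library is flagged by Dixon's criterion by chance in about 1 in 20 groups, and 9 flags arose in 22 groups (10 genes and the summed cardiomyocyte markers, each in sham and IZ). IZ replicate 1 was farther above the other IZ libraries than this criterion allows for Ankrd1 (2788 CPM), Xirp1 (91.7 CPM), Xirp2 (581 CPM), Flnc (176 CPM), Clu (2789 CPM), Enah (113 CPM) and Nrap (259 CPM). The summed cardiomyocyte markers of the same library were flagged as well (33750 CPM). Sham replicate 4 was flagged for Uchl1 (13.9 CPM).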

How the results depend on the processing

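Of 8544 genes called (4470 higher, 4074 lower), 5239 were called with a mean of at least 50 counts required, where 6734 genes were tested, and 10727 with total counts alone (85.8% of them higher, against 52.3%). DESeq2's Wald test called 10295 of 27668 genes. Under total counts alone the pathway genes called were 55 higher and 26 lower (32 and 46 with TMM), and Enah turned from -0.64 to 0.42 on the log2 scale. The median of all genes moved by 1.09 under that scaling and by 0.11 with upper quartile factors, which called 57.6% of their genes higher. Without any 1 library, 7962 to 8614 genes, 30 to 33 higher pathway genes and 44 to 47 lower pathway genes were called. No relation of the 10 genes with the marker level passed in IZ or sham, a count that stayed at 0 in all fits except with IZ replicate 1 included, where 2 passed (Clu and Nrap). The number of these genes with an unadjusted exact permutation p under 0.05 was 5 in IZ and 3 in sham, and without 1 library 2 to 5 in IZ and 2 to 4 in sham. It was 6 in sham with total counts alone.

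Replicate numbers are shared between groups, but same-numbered libraries came from different mice and their deviations correlated at -0.22 to 0.13. With the replicate block, 8079 genes were called, and sham replicate 8 alone correlated best with its own number in IZ. Depth limits Sprr1a and Uchl1 in sham, with at most 24 and 25 counts.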
